A study of Mus musculus with 6 samples.

Results

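The vascular basement membrane components described here are 10 genes of mouse brain cells, chosen by symbol from the 32285 genes of a single-cell count matrix. They are the collagen IV chains Col4a1, Col4a2, Col4a3 and Col4a4, the laminin chains Lama2, Lama4, Lamb1 and Lamc1, the linker Nid1 and the proteoglycan Hspg2. All 10 had transcripts in the 17357 cells analysed. Together they held 32180 of 105875444 UMIs, the molecular tags that let each captured RNA molecule be counted once. At least 1 of these UMIs was found in 5562 cells, 32.0% of the total.

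The study profiled brain cells of RGS5::GFP heterozygous male C57bl/6 mice aged 8 to 12 weeks, in which GFP replaces 1 allele of the pericyte gene Rgs5. Cells came from the contralateral or the ipsilateral cortex at 1, 12 or 24 h after the middle cerebral artery had been occluded permanently, a model of ischemic stroke. Every group, contralateral ones included, thus came from operated, heterozygous mice. Tissue was dissociated with enzymes, mature neurons were depleted, and each of the 6 groups was 1 10x 3′ library. The labels give 1 kit version at 12 h and another at 1 and 24 h, whereas the study's methods name a single kit. Kit version and the 12 h time thus cannot be told apart. The methods also name NovaSeq for the 1 and 12 h libraries and HiSeq for the 24 h ones. Sequencer and the 24 h time cannot be told apart either. By those methods fewer mice than libraries were sequenced, so libraries can share an animal and are not independent of each other. In the matrix the libraries carry the numbers 1 to 6, and no source used here ties a number to a group. The numbered libraries were therefore given no condition, no comparison between hemispheres or times was made, and the cells were described as 1 pooled sample. With 1 sample there is no test and no p-value, and all intervals given are 95% intervals that cover counting error only.

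A basement membrane is a thin sheet of matrix that surrounds endothelial tubes and encloses pericytes. It is built from a collagen IV network and a laminin network, which nidogens and the heparan sulfate proteoglycan perlecan connect. A collagen IV molecule is a trimer, of which α1α1α2 is the widespread form and α3α4α5 that of specialised membranes such as the glomerular one. A laminin molecule has an α, a β and a γ chain. Of the α chains, α4 is one of those of vascular laminins. The α2 chain is known from muscle and from the parenchymal membrane that astrocytes lay down around brain vessels.

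Several members lie head to head in the genome, and the sequences between their starts are shown because each pair shares them. Positions are those of GRCm38 with GENCODE vM21. Col4a1 (chromosome 8, 11198423 to 11312826, minus strand) and Col4a2 (chromosome 8, 11312805 to 11449287, plus strand) overlap at their starts by 22 bases, which lie in their first exons. Col4a4 (chromosome 1, 82448423 to 82586849, minus strand) and Col4a3 (chromosome 1, 82586921 to 82722059, plus strand) are 71 bases apart, and those bases lie in no exon. The 71 bases hold 69.0% G and C. Both are printed 5′ to 3′ on the plus strand.
Col4a1 and Col4a2, chr8:11312805-11312826: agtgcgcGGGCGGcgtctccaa
Col4a4 and Col4a3, chr1:82586850-82586920: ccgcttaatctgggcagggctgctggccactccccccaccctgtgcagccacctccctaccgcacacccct
Capitals mark the GC box GGGCGG or its reverse complement, and, in the sequences that follow, the CCAAT box CCAAT or its reverse complement.

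The other members lie apart from each other. Lama2 spans chromosome 10, 26980036 to 27619758 on the minus strand. Lama4 spans chromosome 10, 38965515 to 39110188 on the plus strand. Lamb1 spans chromosome 12, 31265234 to 31329644 on the plus strand. Lamc1 spans chromosome 1, 153218922 to 153332786 on the minus strand. Nid1 spans chromosome 13, 13437551 to 13512269 on the plus strand. Hspg2 spans chromosome 4, 137468769 to 137570630 on the plus strand. UMIs were summed per gene over the whole locus, so no value below is that of an exon or an isoform.

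The RefSeq promoter table of GRCm38.p6, with 250 bases before and 50 bases after each gene's start, held 7 of the 10 members, which are Col4a1, Col4a2, Col4a4, Lama2, Lamb1, Nid1 and Hspg2. Upstream sequences are shown for Lama2, the member with the largest ratio of pericyte-like to endothelial-like cells, and for Nid1, which was lower in smooth muscle-like than in pericyte-like cells by a similar ratio in every library compared. Only bases before the RefSeq start and outside exons are printed, each in the direction of its gene. The Lama2 stretch lies inside the longer GENCODE gene.
Lama2, chr10:27616943-27617192, minus strand: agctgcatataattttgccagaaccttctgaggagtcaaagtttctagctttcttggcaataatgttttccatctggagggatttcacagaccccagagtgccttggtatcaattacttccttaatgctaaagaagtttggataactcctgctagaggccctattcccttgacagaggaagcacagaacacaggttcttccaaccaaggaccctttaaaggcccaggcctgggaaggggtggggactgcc
Nid1, chr13:13437352-13437550, plus strand: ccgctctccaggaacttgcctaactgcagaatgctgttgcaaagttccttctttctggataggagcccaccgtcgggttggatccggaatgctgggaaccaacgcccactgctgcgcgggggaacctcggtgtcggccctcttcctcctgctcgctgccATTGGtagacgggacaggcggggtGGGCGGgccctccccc
The Lama2 window held 50.3% G and C, near the median of all 32851 promoters of 52.7%, whereas the other 6 windows held 63.3% to 74.0%. Over both strands, CCAAT was found in 4 of the 7 windows (Col4a1, Col4a2, Lamb1 and Nid1) and in 37.4% of all promoters. GGGCGG was found in 6 of the 7, all but Col4a4, and in 35.7% of all promoters. TATAAA was found in 0 of the 7 and in 13.6% of all promoters. The windows of Col4a1 and Col4a2 overlap and so share some matches. A match describes letters in a window and no factor was measured here.

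Clustering of the cells, with the members and their pathway lists left out of the genes used, gave 29 clusters, of which 23 were named from marker genes. The 825 pericyte-like cells carried all 7 pericyte markers, from 1267 CPM (UMIs of a gene scaled to 1e+06 UMIs of the class) of Atp13a5 to 18657 CPM of Vtn. The 253 smooth muscle-like cells were led by Acta2 at 11913 CPM, against 18.8 CPM in pericyte-like cells. The 2671 endothelial-like cells held Pecam1 at 686 CPM and Cldn5 at 3735 CPM. The 31 fibroblast-like cells held Dcn at 10152 CPM and Pdgfra at 622 CPM, while Dpt was lowest of the 7 fibroblast markers at 5.06 CPM. Other classes were 1166 astrocyte-like, 2782 oligodendrocyte-like, 334 neuroblast-like, 22 choroid plexus-like, 7860 microglia-like, 375 monocyte-derived macrophage-like, 178 neutrophil-like and 55 B lymphocyte-like cells, and 805 cells stayed unnamed.

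The libraries held 1221 to 5873 cells and 7527251 to 33340937 UMIs in cells, with median depths of 5053 to 5660.5 UMIs per cell. Only 26 cell barcodes of 17331 occurred in more than 1 library. Libraries stood apart within classes, as several endothelial and mural subclusters were mostly of 1 or 2 libraries. Oligodendrocyte-like cells of clusters 5 and 6 were split by library too, with 97.1% and 98.2% in cluster 5 for libraries 4 and 3 and 2.60% to 36.5% for the others. Transcripts of other cells were measurable in the pericyte-like class. Among microglia markers, Aif1 was at 30.9 CPM, P2ry12 at 126 CPM and Cx3cr1 at 254 CPM there. Cx3cr1 stood at 34.6 CPM in endothelial-like and at 3421 CPM in microglia-like cells. By the levels of P2ry12 and Cx3cr1, free RNA could make up at most 31.2% of the pericyte-like and 14.2% of the smooth muscle-like UMIs. The limit was 4.74% for endothelial-like and 20.1% for astrocyte-like UMIs. The hemoglobin gene Hbb-bs was at 5181 CPM in endothelial-like and 40.5 CPM in pericyte-like cells. Barcodes of 1 to 50 UMIs, which hold free RNA and no cell, gave members between 0.31 CPM (Col4a3) and 42.5 CPM (Col4a1). The pericyte-like level was above the free level for each of the 10. These are levels in free RNA alone, which is only a part of the UMIs of a class. A class level below them thus need not come from free RNA.

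The ordinary collagen IV chains were found in every class of the vessel wall. Fibroblast-like cells are counted with that wall here, although their place in the tissue was not measured. Col4a1, the α1 chain, was at 1057 CPM (interval 919 to 1211) in fibroblast-like, 971 CPM (937 to 1007) in pericyte-like, 668 CPM (653 to 683) in endothelial-like and 447 CPM (416 to 479) in smooth muscle-like cells. Fibroblast-like and pericyte-like levels did not differ beyond counting error (ratio 1.09, 0.941 to 1.25), and each further step down the order did. Col4a2, the α2 chain, was at 556 CPM (457 to 671) in fibroblast-like, 451 CPM (439 to 464) in endothelial-like, 372 CPM (351 to 394) in pericyte-like and 293 CPM (269 to 319) in smooth muscle-like cells. No wall class lacked either chain. Since endothelial-like cells were the most numerous of these, they held 60.4% of all Col4a1 and 68.8% of all Col4a2 UMIs. Pericyte-like cells held 23.5% and 15.1%.

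The share of cells with a UMI gave the same picture for Col4a1. It was 86.2% (83.6 to 88.5) in pericyte-like cells and 56.0% (52.5 to 59.4) once every cell was thinned to 1000 UMIs. In endothelial-like cells it was 77.7% before and 42.7% after thinning. Microglia-like cells, which should lack the gene, had 0.28% before and 0.025% after, at a median depth of 5232 UMIs against 3317 in pericyte-like and 3994 in endothelial-like cells.

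Col4a3 and Col4a4, chains of the α3α4α5 network, were scarce and were found mainly in pericyte-like cells. Col4a3 was at 35.7 CPM (29.4 to 42.9) there, at 10.1 CPM in fibroblast-like, 6.71 CPM in smooth muscle-like and 1.53 CPM in endothelial-like cells. Col4a4 was at 29.6 CPM (23.9 to 36.3) in pericyte-like cells and at 3.34 CPM (1.53 to 6.35) in neuroblast-like cells, the next in order. Pericyte-like cells held 112 of 153 Col4a3 UMIs (73.2%) and 93 of 150 Col4a4 UMIs (62.0%). Only 11.6% of pericyte-like cells had a Col4a3 UMI and 9.45% a Col4a4 UMI. The fibroblast-like Col4a3 level rests on 2 UMIs and was not set apart from the pericyte-like one (ratio 3.53, 0.954 to 29.5).

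Among laminin chains, Lama2 and Lama4 divided the wall cells in different ways. Lama2, the α2 chain, was at 209 CPM (193 to 226) in pericyte-like and 192 CPM (136 to 264) in fibroblast-like cells. It was at 48.7 CPM (43.8 to 54.1) in astrocyte-like, 25.7 CPM (18.8 to 34.3) in smooth muscle-like and 15.2 CPM (13.7 to 16.8) in oligodendrocyte-like cells. In endothelial-like cells it was at 0.77 CPM (0.35 to 1.45), below the free RNA level of 12.0 CPM. Endothelial-like cells thus held 9 of the 1533 Lama2 UMIs, oligodendrocyte-like cells 25.0% and astrocyte-like cells 23.1%. Lama4, the α4 chain, was at 169 CPM (155 to 184) in pericyte-like, 147 CPM (98.2 to 211) in fibroblast-like, 59.5 CPM (55.2 to 64.1) in endothelial-like and 44.7 CPM (35.5 to 55.7) in smooth muscle-like cells. In astrocyte-like cells it was at 1.24 CPM, and in oligodendrocyte-like cells at 0.04 CPM.

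Lamb1, the β1 chain, was highest in fibroblast-like cells, with 248 CPM (183 to 328) against 92.1 CPM (81.7 to 103) in pericyte-like cells. It was low in smooth muscle-like (7.83 CPM) and endothelial-like cells (3.74 CPM). Lamc1, the γ1 chain that most laminins share, was at 491 CPM (398 to 599) in fibroblast-like and 470.4 CPM (447 to 495) in pericyte-like cells, which did not differ beyond counting error (ratio 1.04, 0.840 to 1.28). It stood at 109 CPM in smooth muscle-like and 61.0 CPM (56.6 to 65.6) in endothelial-like cells. Outside the wall it was at 29.1 CPM (27.1 to 31.3) in oligodendrocyte-like, 15.1 CPM in astrocyte-like and 5.17 CPM (4.52 to 5.88) in microglia-like cells, the only member above 1 CPM in the latter. In oligodendrocyte-like cells 21.7% carried a Lamc1 UMI, and 2.77% after thinning, against 2.71% and 0.46% of microglia-like cells. The astrocyte-like Lamc1 level was below the free RNA level of 21.9 CPM.

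Nid1, the nidogen that joins laminin to collagen IV, was at 432 CPM (409 to 455) in pericyte-like and 354 CPM (276 to 447) in fibroblast-like cells. It was at 76.1 CPM (63.8 to 90.0) in smooth muscle-like and 61.6 CPM (57.2 to 66.3) in endothelial-like cells. Pericyte-like cells held 54.6% of its UMIs. Hspg2, the perlecan core protein, had another order. It was at 197 CPM (140.3 to 269.7) in fibroblast-like, 92.4 CPM (87.0 to 98.1) in endothelial-like, 48.4 CPM (41.0 to 56.8) in pericyte-like and 30.8 CPM (23.2 to 40.0) in smooth muscle-like cells, each set apart from the next by its ratio interval. Endothelial-like cells held 74.3% of the Hspg2 UMIs and 0.59% of the Lama2 UMIs.

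**Figure D1:**
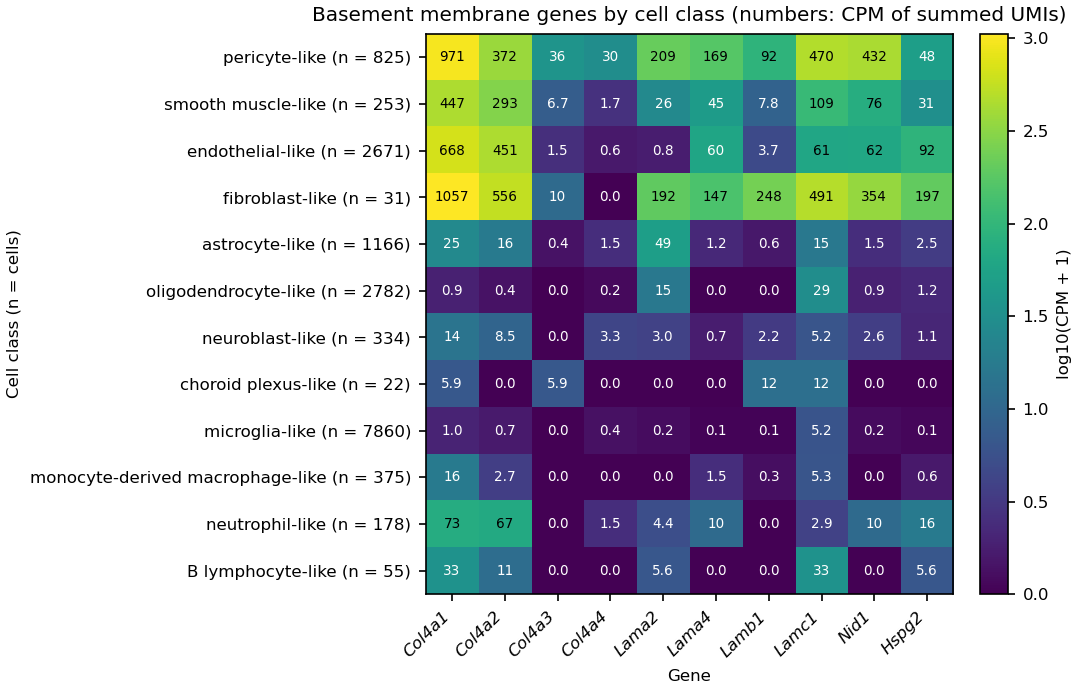
Heat map of the 10 members (columns) in the 12 named cell classes (rows, with their number of cells). Numbers in the cells are CPM of summed UMIs, and colours show log10(CPM + 1). Lama2 falls from 209 CPM in pericyte-like to 0.77 CPM in endothelial-like cells, whereas Col4a1 and Col4a2 stay high in all 4 classes of the vessel wall.

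Set against endothelial-like cells, pericyte-like cells held 7 of the 10 members at least 2 times higher and 0 at least 2 times lower. Of 8979 genes tested, 17.8% were higher and 13.5% lower by this rule. The median log2 ratio was 1.94 for the members and 0.13 for all genes tested. The 7 were Lama2 (ratio 273, 143 to 599.9), Col4a4 (49.8, 23.2 to 127), Lamb1 (24.6, 17.9 to 34.6), Col4a3 (23.3, 14.1 to 40.8), Lamc1 (7.72, 7.05 to 8.45), Nid1 (7.002, 6.39 to 7.67) and Lama4 (2.85, 2.54 to 3.19). Each was higher in all 6 libraries compared singly. The lowest single-library ratios were 2.29 for Lama4, 4.07 for Nid1 and 4.91 for Lamc1, all in library 6. The counts of 7 and 0 were the same with called doublets removed and with cells thinned to 1000 UMIs.

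The α1 and α2 chains and perlecan were the members not past 2 times. Col4a1 was 1.46 times higher in pericyte-like cells (1.40 to 1.52), with library ratios of 1.55, 1.14, 1.42, 1.37 and 1.94 in libraries 1 to 5 and 0.784 in library 6. The direction in library 6 was therefore opposite to that of the others. There, 51.3% of the endothelial-like cells belonged to cluster 9, described below. Outside it, endothelial-like cells of library 6 held Col4a1 at 289 CPM and Col4a2 at 251 CPM. Pericyte-like cells of that library held 568 and 249.8 CPM. The pericyte-like class leaves out cluster 23, which is also described below. Col4a2 had a ratio of 0.824 (0.772 to 0.878), which was 0.391 in library 6, 0.846 to 0.919 in libraries 1 to 4 and 1.16 in library 5. Without library 6 the pooled ratio was 1.00, and with free RNA subtracted by P2ry12 and Cx3cr1 it was 1.04. That subtraction took the upper limit of 31.2% as free RNA in pericyte-like cells. It also counts microglia transcripts of mixed cells as free RNA. Of the mural cells clustered again below, subcluster 7 (71.7% called doublets) held Aif1 at 311 CPM, and subclusters named pericyte-like at most 6.81 CPM. The 775 of these cells compared below as pericyte-like held Col4a2 at 399.8 CPM, against 451 CPM in endothelial-like cells. The same subtraction left the 7 members above at least 2 times higher. Hspg2 had a ratio of 0.524 (0.439 to 0.621), and only library 5 was not below 1, at 1.04.

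**Figure D2:**
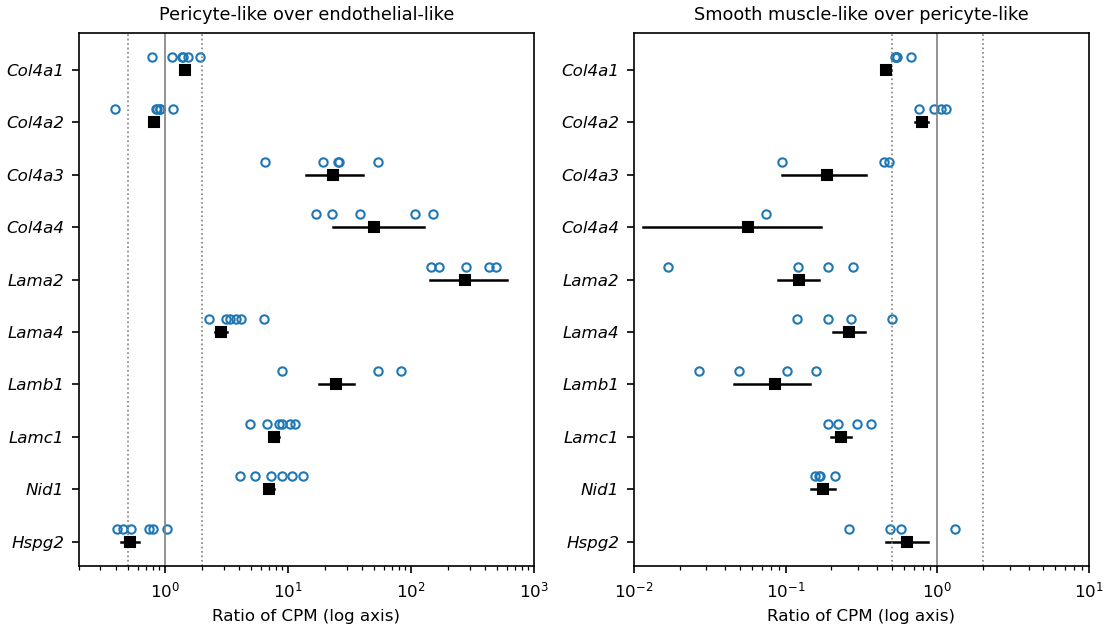
Ratio of each member between classes (log scale). Black squares with 95% intervals pool all cells, open blue circles are single libraries with at least 20 cells in both classes, library ratios of 0 or against 0 UMIs are not drawn, and dotted lines mark ratios of 0.5 and 2. A total of 7 members lie right of 2 for pericyte-like over endothelial-like cells, and 8 lie left of 0.5 for smooth muscle-like over pericyte-like cells.

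Smooth muscle-like cells, the contractile mural cells of larger vessels, had lower levels than pericyte-like cells as shares of UMIs. Their median depth was 6780 UMIs per cell against 3317, so a lower share need not mean fewer molecules per cell. Col4a2 UMIs were found in 76.3% of smooth muscle-like and 62.3% of pericyte-like cells, and Hspg2 UMIs in 18.2% and 16.7%. The other members were found in a smaller share of smooth muscle-like cells. Of the 10 members, 0 were higher and 8 lower, beside 7.58% higher and 15% lower of 8810 genes tested. The ratios of the 8 were 0.057 for Col4a4, 0.085 for Lamb1, 0.123 for Lama2, 0.176 for Nid1, 0.188 for Col4a3, 0.232 for Lamc1, 0.264 for Lama4 and 0.460 for Col4a1. All 8 were below 1 in each of the 4 libraries with at least 20 cells of both classes, libraries 3 to 6. Nid1 had library ratios of 0.157 to 0.21. Single libraries put Col4a1 at 0.527 to 0.675, all above the pooled 0.460 and none past 2 times. Col4a2 (0.788, 0.710 to 0.875) and Hspg2 (0.635, 0.458 to 0.870) were not past 2 times. Libraries differed in direction for both, with Col4a2 from 0.760 to 1.15 and Hspg2 from 0.264 to 1.32.

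Fibroblast-like cells, rare collagen-producing cells, were named from general fibroblast markers, and whether they lay at vessels was not measured. They held 2 members higher than pericyte-like cells and 2 lower, with 14% higher and 19.5% lower among 9030 genes tested. Hspg2 was 4.07 times (2.79 to 5.83) and Lamb1 2.69 times (1.95 to 3.66) higher. Col4a3 rested on 2 UMIs (ratio 0.284, 0.034 to 1.05) and Col4a4 on 0 UMIs, for which 3 counts would be 15.2 CPM. These lower calls thus rest on almost no molecules. The remaining 6 members had ratios between 0.820 (Nid1) and 1.497 (Col4a2, 1.22 to 1.82). No library held 20 fibroblast-like cells, so no library was compared singly.

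Astrocytes face the outer side of the vascular basement membrane. Of the 7 members tested against endothelial-like cells, 1 was higher and 6 lower in astrocyte-like cells, beside 23.6% higher and 21.7% lower of 9299 genes tested. Lama2 was 63.7 times higher (33.2 to 140.4). Its astrocyte-like level was 69.8, 54.4, 44.9, 39.9, 49.6 and 56.4 CPM in libraries 1 to 6, against 0 to 1.54 CPM in endothelial-like cells, so the ranges did not overlap. A Lama2 UMI was found in 24.1% of astrocyte-like cells, or 5.06% after thinning, and in 0.14% and 0.013% of microglia-like cells. Col4a1 at 25.5 CPM and Col4a2 at 16.1 CPM in astrocyte-like cells lay below the free RNA levels of 42.5 and 27.7 CPM, although single cells held up to 16 and 8 of these UMIs. Lama4, Lamc1, Nid1 and Hspg2 were also below their free RNA levels. Free RNA could make up at most 20.1% of the astrocyte-like UMIs. How much of these levels came from it was not tested.

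The balance between chains differed between wall cells. A 3′ count does not compare the molar amounts of 2 genes, but the ratio of their UMIs can be set side by side between classes. Pericyte-like cells gave 2.61 Col4a1 UMIs for each Col4a2 UMI (2.44 to 2.80), endothelial-like cells 1.48 (1.43 to 1.53), smooth muscle-like cells 1.52 (1.36 to 1.71) and fibroblast-like cells 1.90 (1.501 to 2.42). The 6 libraries gave 2.20 to 2.73 in pericyte-like and 1.13 to 1.76 in endothelial-like cells, so these ranges did not overlap. The Lama2 to Lama4 ratio was 1.23 (1.10 to 1.39) in pericyte-like, 0.575 (0.391 to 0.837) in smooth muscle-like, 0.013 (0.0059 to 0.025) in endothelial-like and 39.3 (20.5 to 86.7) in astrocyte-like cells. Over libraries it was 0.904 to 1.83 in pericyte-like cells and 0.700 to 1.21 in smooth muscle-like cells of libraries 3 to 5. These ranges overlapped, and the 3 smooth muscle-like values all lay above the pooled 0.575. Library 6 was left out of this range. Its 71 smooth muscle-like cells held 2 Lama2 UMIs against 31 Lama4 UMIs, a balance further towards Lama4. Lamc1 to Nid1 was 1.09 (1.01 to 1.17) in pericyte-like and 0.989 (0.891 to 1.10) in endothelial-like cells. Its library ranges were wide, from 0.936 to 1.62 in pericyte-like cells and from 0.775 in library 6 to 1.87 in library 5 in endothelial-like cells.

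Levels over the numbered libraries were a further source of spread. A member was counted when its highest library was at least 2 times its lowest with intervals apart. In pericyte-like cells, which every library held in 80 to 370 cells, 3 of the 8 members tested were counted, a share near the 31.5% of all 3681 genes tested. Col4a1 was at 974, 768, 1027, 1609.7, 429.9 and 568 CPM in libraries 1 to 6. Col4a2 was at 384, 349.7, 378, 589, 182 and 249.8 CPM. Both chains were highest in library 4 and lowest in library 5. Hspg2 was the other, with 31.6 CPM in library 3 as the lowest, a median of 65.1 and 73.2 CPM in library 1 as the highest.

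The laminin chains and nidogen were more even in pericyte-like cells. Lama2 ranged from 176 to 242 CPM (median 226), Lama4 from 129 to 217 CPM (median 172), Lamb1 from 72.1 to 116 CPM (median 88.5), Lamc1 from 348 to 587 CPM (median 489) and Nid1 from 362 to 498 CPM (median 406). The highest library was 1.37 to 1.69 times the lowest for these 5. Col4a3 and Col4a4, under the level for this comparison, ranged from 20.1 to 61.4 CPM and from 16.2 to 77.4 CPM, both highest in library 5, where Col4a1 and Col4a2 were lowest.

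In endothelial-like cells 5 of the 6 members tested were counted, against 30.6% of 3400 genes tested. Col4a1 was at 628, 671, 725, 1176, 221 and 724 CPM in libraries 1 to 6, and Col4a2 at 455, 381, 411, 675, 157 and 639.6 CPM. Library 4 was again the highest and library 5 the lowest, as it was for both chains in smooth muscle-like cells. Lama4 ranged from 20.6 CPM in library 1 to 94.96 CPM in library 6 (median 48.2). Nid1 ranged from 29.2 to 92.3 CPM (median 49.4) and Hspg2 from 56.2 to 133 CPM (median 94.2), both lowest in library 5. Lamc1 ranged from 46.3 to 76.7 CPM (median 55.6) and was not counted.

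**Figure D3:**
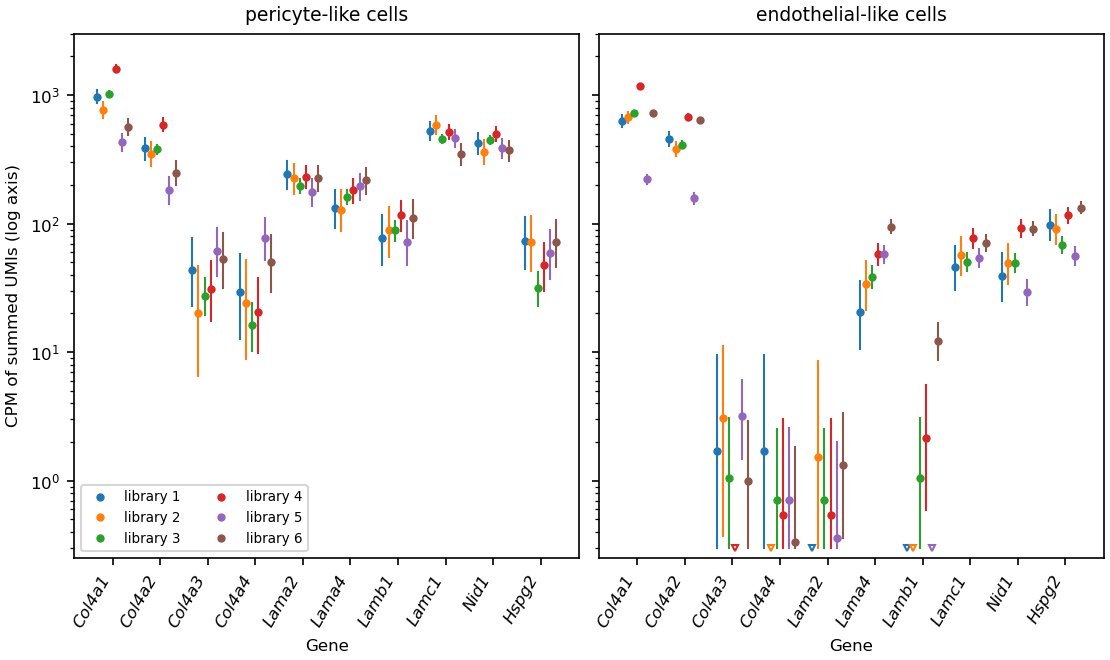
Level of the members (CPM, log scale) in each numbered library for pericyte-like and endothelial-like cells, with 95% Poisson intervals and open triangles for 0 UMIs. Col4a1 and Col4a2 are highest in library 4 and lowest in library 5 in both classes. Library numbers carry no condition.

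The endothelial-like class was not uniform. Its cluster 9 (581 cells, led by Tmem252, Ctla2a and Scgb3a1) held 41.2% of the endothelial-like cells of library 4 and 51.3% of those of library 6, and at most 5.52% in the others. This comparison was added after the clusters had been seen. Of the 6 members tested, 5 were at least 2 times higher in cluster 9 than in the other 2090 endothelial-like cells and 0 lower, beside 5.59% higher and 5.49% lower of 8085 genes tested. The median log2 ratio was 1.06 for the members tested and -0.05 for all genes tested.

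Col4a1 was at 1102 CPM in cluster 9 and 519 CPM outside (ratio 2.12, 2.03 to 2.22), and Col4a2 at 821 and 325 CPM (2.53, 2.39 to 2.67). Lama4 was at 105 and 44.1 CPM (2.37, 2.04 to 2.76), Nid1 at 106 and 46.4 CPM (2.29, 1.97 to 2.66) and Hspg2 at 149 and 73.1 CPM (2.04, 1.80 to 2.30). Lamc1 had a ratio of 1.33 (1.13 to 1.57), and Lamc1 to Nid1 was 0.705 (0.592 to 0.839) in cluster 9 and 1.21 (1.06 to 1.39) outside. The count of 5 rested on library 6, for without it only Col4a1 (2.15) and Col4a2 (2.03) were past 2 times, with Nid1 at 1.87, Lama4 at 1.74 and Hspg2 at 1.56. It was 4 without library 4 or without library 5, where Col4a1 was at 1.95 and 1.85. No member tested was past 3 times when the libraries were pooled. These ratios differed between libraries. Within libraries 4 and 6, which held most of cluster 9, Col4a1 was 1.89 and 3.57 times higher, Hspg2 1.95 and 2.28 times, and Nid1 1.73 and 2.41 times. In libraries 3 and 5, with 29 and 30 cluster 9 cells, the ratios were 1.22 and 0.533 for Col4a1, 0.479 and 0.430 for Hspg2 and 0.809 and 0.272 for Nid1. Of the 5, only Lama4 was higher in all 4 libraries (1.28 to 2.43). Lamb1, too low for the test, was at 12.3 CPM in cluster 9 (37 UMIs) and 0.80 CPM outside (7 UMIs). Of the 37 UMIs, 34 came from library 6.

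The spread between libraries was smaller outside cluster 9. There the highest library was 3.71 times the lowest for Col4a1, 3.10 for Col4a2, 2.26 for Nid1 and 1.69 for Hspg2, against 5.32, 4.30, 3.16 and 2.37 in the whole class. For Lama4 it was 2.67 in place of 4.61, with the highest level in library 5 (56.4 CPM) and not in library 6.

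Clustering the endothelial-like cells again gave 12 subclusters. Col4a1 was highest in subcluster 6 at 1725 CPM (1631 to 1822), where 154 of 183 cells came from library 4 and Kit, Plaur and Adm led, and in subcluster 2 at 1107 CPM (1057 to 1159), where 298 of 312 cells came from library 6 and Apln and Hmox1 led. It was lowest in subcluster 1 at 277 CPM (255 to 301), which was mostly of libraries 5 and 6. Hspg2 was also highest in subclusters 2 (190.04 CPM) and 6 (152 CPM). Arterial-like cells (302, with Gkn3 and Bmx) had 718 CPM of Col4a1 and venous-like cells (107, with Slc38a5 and Ackr1) 345 CPM, a ratio of 2.08 (1.81 to 2.39). Within libraries this ratio was 2.31 (1.58 to 3.41) in library 5 and 0.867 (0.516 to 1.45) in library 6, the 2 with at least 20 cells of each kind. Subcluster 4 was led by hemoglobin genes, and its Col4a1 level of 565 CPM (514 to 621) lay between those of the others.

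**Figure D4:**
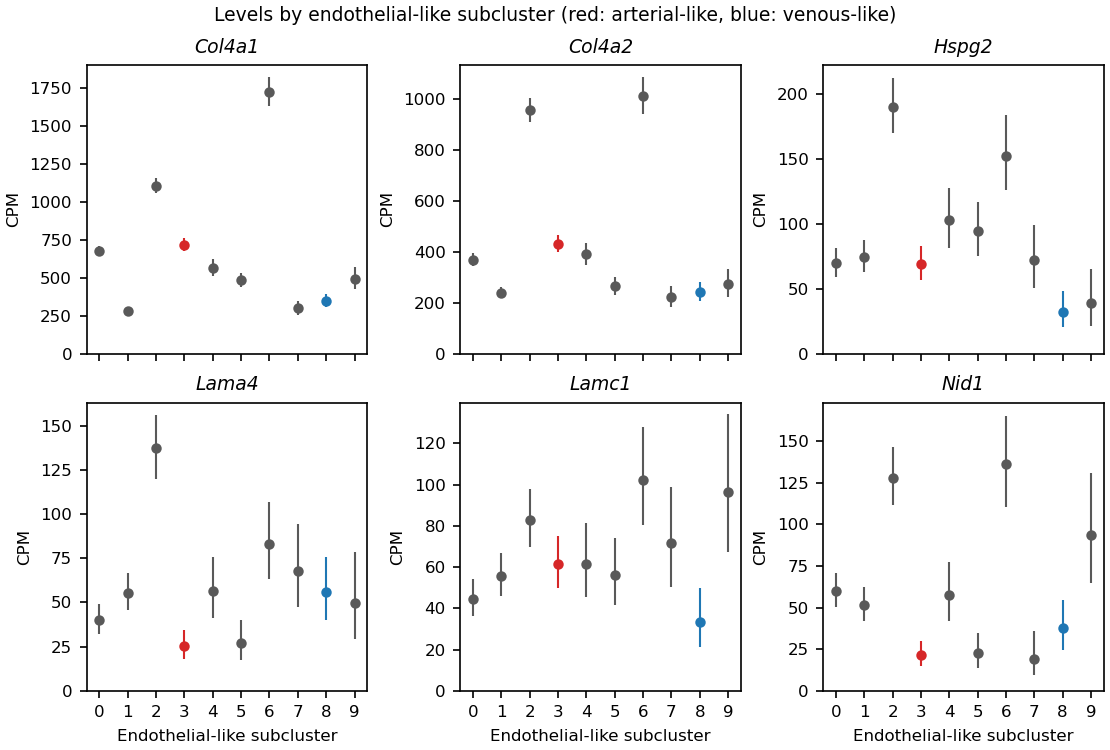
Levels (CPM, linear axes from 0) of the 6 members tested in endothelial-like cells, by subcluster, for the subclusters numbered 0 to 9, with 95% Poisson intervals. Red marks arterial-like and blue venous-like cells. Col4a1 reaches 1725 CPM in subcluster 6 and 1107 CPM in subcluster 2, each mostly of 1 library.

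Mural cells were taken as the 825 pericyte-like cells, the 253 smooth muscle-like cells and the 64 cells of cluster 23, in all 1142. Cluster 23 carried all 7 pericyte markers, but stayed unnamed because its leading genes held more markers of another class than of its own. Among mural cells clustered again, 1 subcluster stood out by the chemokine and metallothionein genes Ccl7, Cxcl1, Mt1, Ccl11 and Cxcl2, the genes by which it was picked, and is called the response subcluster. It held 56 cells, 55 of cluster 23 and 1 smooth muscle-like, with 22 of library 4 and 34 of library 6, and was led by Il11, Saa3 and Ednrb. It was set against the other 775 mural cells whose subclusters were named pericyte-like. This group differed from the pericyte-like class, as its subcluster 5 (57 cells) held Acta2 at 2203 CPM, against 18.8 CPM in that class. Against these 775 cells, 1 member was higher and 4 were lower, beside 11.2% higher and 20.1% lower of 8367 genes tested. Lamb1 was at 244 CPM in the subcluster and 97.3 CPM in the others (ratio 2.51, 1.91 to 3.26). Within libraries 4 and 6 the ratio was 2.36 and 2.01, so it was above 2 in both. Lama2 was at 55.3 and 229.6 CPM (0.241, 0.139 to 0.389), with 0.225 and 0.201 within the libraries. Lamc1 was at 254 and 526 CPM (0.483, 0.379 to 0.607), with 0.487 and 0.606 within the libraries.

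Col4a3 and Col4a4 were lower too, with 2 and 1 UMIs in the subcluster (ratios 0.174, 0.021 to 0.646, and 0.107, 0.0027 to 0.611). The other members were not past 2 times. Col4a1 had a ratio of 1.06 (0.945 to 1.19), Col4a2 1.39 (1.18 to 1.64), Lama4 1.06 (0.794 to 1.39), Nid1 0.747 (0.609 to 0.909) and Hspg2 1.30 (0.77 to 2.09). Within libraries 4 and 6 the ratios were 1.07 and 1.45 for Col4a1 and 1.37 and 1.73 for Col4a2. They were 1.04 and 0.849 for Lama4, 0.609 and 0.993 for Nid1 and 1.13 and 1.14 for Hspg2. As shares of UMIs, the subcluster therefore had less α2 and γ1 and more β1 laminin RNA. Its median depth was 4973 UMIs per cell, against 2625 to 4051 in the other subclusters named pericyte-like. A lower share thus need not mean fewer molecules per cell. In library 6, 34 subcluster cells held 49 Lamc1 UMIs and 79 others 111. In library 4, 22 subcluster cells held 29 and 119 others 241. The Lama2 to Lama4 ratio of the subcluster was 0.283 (0.155 to 0.492) against 1.24 (1.10 to 1.40). Its Col4a1 to Col4a2 ratio was 1.96 (1.63 to 2.38) against 2.58 (2.40 to 2.77). With cells of only 2 libraries, subcluster and library cannot be told apart beyond these within-library values.

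**Figure D5:**
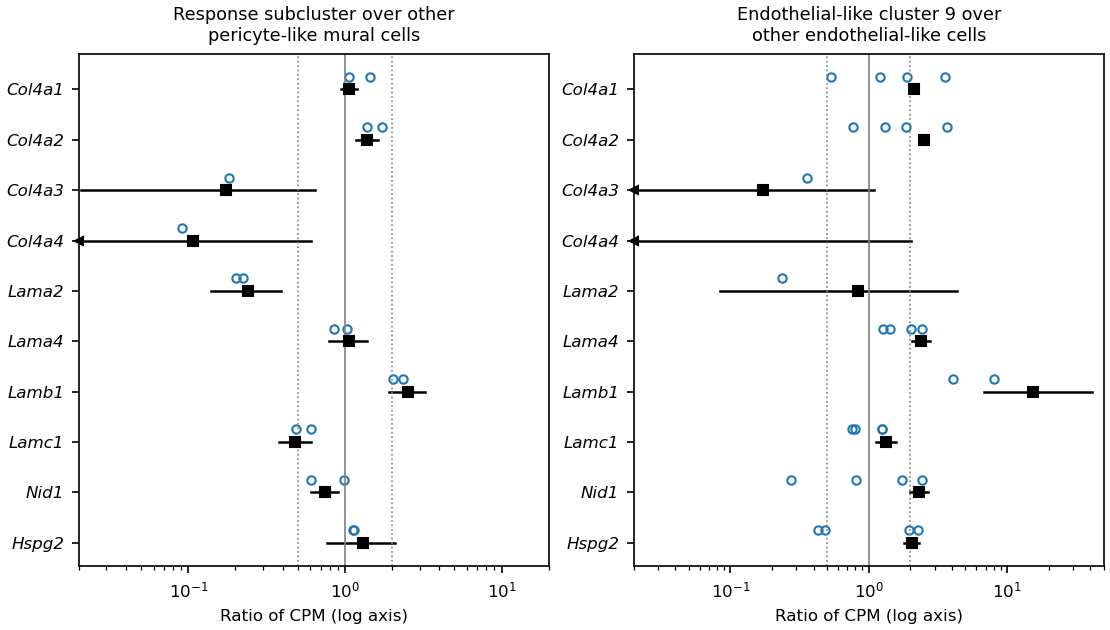
Ratio of each member (log scale) in the response subcluster over the other pericyte-like mural cells and in endothelial-like cluster 9 over the other endothelial-like cells. Symbols are pooled ratios with 95% intervals (black squares) and single libraries (open blue circles), with dotted lines at 0.5 and 2, and black triangles where an interval or a ratio of 0 runs off the axis. Lamb1 lies right of 2 and Lama2 left of 0.5 in the subcluster. In cluster 9 the 5 members called lie right of 2, as does Lamb1, which was too low to be tested.

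Genes that act on the same membrane were given as 4 lists, chosen with earlier results of these data known. Of all genes tested between pericyte-like and endothelial-like cells, 17.8% were higher and 13.5% lower. Of the adhesion receptors, through which cells hold the membrane, 7 of 10 were tested between pericyte-like and endothelial-like cells, with 4 higher and 1 lower. The β1 integrin Itgb1 was at 889 CPM in pericyte-like, 1204 CPM in smooth muscle-like and 505 CPM in endothelial-like cells, and the collagen receptor Itga1 at 1035, 478 and 372 CPM. The laminin receptor Bcam was at 229, 546 and 255 CPM. Of genes for folding and cross-linking of collagen, 11 of 13 were tested, with 4 higher and 0 lower. Sparc was at 1617 CPM in pericyte-like and 2263 CPM in endothelial-like cells, the collagen chaperone Serpinh1 at 591 and 273 CPM and P4hb at 184 and 138 CPM.

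Of the other basement membrane genes, 9 of 16 were tested, with 3 higher and 4 lower in pericyte-like than in endothelial-like cells (median log2 ratio 0.14). The shares of all genes tested between these 2 classes were 17.8% higher and 13.5% lower. Tinagl1 was at 506 CPM in smooth muscle-like, 373 CPM in endothelial-like and 13.1 CPM in pericyte-like cells, Ntn4 at 444 and 37.3 CPM, and Col15a1 at 389 CPM in fibroblast-like and 0.32 CPM in pericyte-like cells. Smooth muscle-like cells thus held 5 of 9 of this list higher and 3 lower than pericyte-like cells, beside 0 and 8 of the 10 members. Among all genes tested in that comparison, 7.58% were higher and 15% lower. Of proteases and inhibitors, 9 of 15 were tested between pericyte-like and endothelial-like cells, with 4 higher and 3 lower. Timp3 was at 3971 CPM in fibroblast-like, 1055 CPM in smooth muscle-like and 466 CPM in pericyte-like cells, Htra1 at 2558 CPM in astrocyte-like cells, and Plat at 623 CPM in pericyte-like and 627 CPM in endothelial-like cells.

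Both states were set against the same lists. In the response subcluster, 6 of 11 proteases and inhibitors were higher and 1 lower (median log2 ratio 1.96), while 1 of 7 other basement membrane genes was higher and 5 lower (median -1.61). Of the adhesion receptors, 0 of 6 were higher and 3 lower, and of the folding genes 2 of 13 were higher and 1 lower. In endothelial-like cluster 9, 5 of 9 proteases and inhibitors were higher and 1 lower (median 1.30), and 0 of 6 other basement membrane genes were higher and 2 lower (median -0.48). Counts were 1 higher and 0 lower of 6 adhesion receptors, and 1 higher and 0 lower of 11 folding genes. The median of all genes tested was -0.13 and -0.05. Of all these genes, 11.2% were higher and 20.1% lower in the response subcluster, and 5.59% and 5.49% in cluster 9.

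Across the 12 named classes, the members followed each other to different degrees, given as Pearson's r of log2(CPM + 10) with no test, since classes share libraries and free RNA. Nearest genes are given for 8 members, as Col4a3 and Col4a4 were under the 50 CPM needed. The closest pairs were Lama4 with Nid1 (r = 0.99) and Col4a1 with Col4a2 (0.99), and the least alike were Lama2 with Hspg2 (0.61) and Lama2 with Col4a2 (0.62). Among 8232 genes, the genes nearest to Lama2 were Slc30a10 (0.93), Cdh11 (0.93) and Gpc6 (0.91). Those nearest to Lamb1 were Nkd2 (0.99), Colec12 (0.98) and Bmp4 (0.98), and to Lamc1 they were Lamc3 (0.95), Nid1 (0.93) and Tns2 (0.92). Those nearest to Hspg2 were Col4a2 (0.95), Adgra2 (0.95) and Col4a1 (0.94). Lama4 had Nid1 (0.99), Foxc1 (0.97) and Arhgap29 (0.97), and Nid1 had Lama4 (0.99), Cp (0.97) and Mgp (0.97). Col4a1 had Col4a2 (0.99), Igfbp7 (0.97) and Lama4 (0.96), and Col4a2 had Col4a1 (0.99), Arhgap29 (0.97) and Uaca (0.96). Within single cells the same pair of collagen chains gave r of 0.30 in pericyte-like and 0.39 in endothelial-like cells, and 0.14 and 0.19 at 1000 UMIs per cell.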

How the data were processed

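The authors deposited 1 matrix of UMI counts per gene and barcode for 6 libraries, made with Cell Ranger 5 (5.0.1 per the file headers) on mm10 per the submitters' processing notes. By the study's methods the libraries were aggregated with depth normalization, so reads of deeper libraries may have been thinned. The barcodes were deposited without a cell filter. The matrix pools the libraries without naming their groups, and 0 columns of per-sample values went unused.

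In each library the UMI threshold for a cell was set at 0.1 times the depth that ranks 99th percentile among the top 3000 barcodes. Cells below 200 features or above 10% mitochondrial counts were dropped. After log-normalization, 2000 variable genes (70 genes left out, namely the members, the pathway lists and genes that define states), 30 components (15 in subsets) and 20 neighbours, Leiden clustering was run at resolution 0.8. A cluster took the class whose markers were highest when at least 3 were raised, the lead was at least 1 (log2), its leading genes were not of another class or hemoglobin, and most of its cells were not called doublets. Markers covered 19 classes. These names are not those of the study, and rebuilding them can itself make values differ. Doublets, called by the steps of Scrublet (1.84% of cells), were kept and removed in an alternative. In the pericyte-like class 6.91% were called.

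UMIs were summed per class and divided by the class total (CPM), with exact Poisson intervals, conditional intervals for ratios and Clopper-Pearson intervals for shares, all at 95%. Genes with a mean of at least 10 CPM (50 CPM over libraries) were tested, and a call was a ratio of at least 2. Cells are not replicates, so no count model or p-value was used. The members and lists were chosen with earlier results of these data known. Named genes are the members, the 3 highest of each list, markers, leading genes of clusters and the 3 nearest genes of each member that reached 50 CPM in a class. The call rules and ratio intervals were tested on counts simulated from pooled profiles, without spread between cells. Thinning was checked for the depth it left. Cell calling, doublet calling, clustering, naming and free RNA subtraction were not simulated. Clusters came from leidenalg 0.10.2 with igraph 0.11.9, and intervals from scipy 1.17.1, under Python 3.11.15 with pandas 2.3.3 and numpy 2.4.6.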

Additional observations from a re-analysis of the deposited data

How the results depend on the processing

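Over the alternatives, 212 recomputed counts of members called stayed within 1.5 times the reported count and 10 did not. The count lower in pericyte-like than in endothelial-like cells was 1 in place of 0 at a fold of 1.5, and ranged from 0 to 1 when each library was left out (1 without library 1 and without library 5). The count higher in fibroblast-like than in pericyte-like cells was 1 in place of 2 at a fold of 3 and with cells thinned to 1000 UMIs. In the response subcluster the count higher was 0 in place of 1 at a fold of 3 and ranged from 1 to 2 (2 without library 6). In endothelial-like cluster 9 the count higher was 0 in place of 5 at a fold of 3 and ranged from 2 to 5 (2 without library 6), in alternatives chosen after seeing the data. In astrocyte-like against endothelial-like cells it was 2 in place of 1 with no filter on low levels. The member added was Col4a4, too low for the test, with a ratio of 2.54 (0.901 to 7.74) on 11 and 7 UMIs. The cause of the other changes was not tested. Counts in pericyte-like against endothelial-like cells stayed at 6 or 7 higher throughout. Of the recomputed levels, 84 moved by more than their interval and 496 did not. Leaving out mixed subclusters, chosen after seeing the data, changed no count. No fibroblast-like class was found at resolution 0.4 or with the filters of the study's methods alone, and it could not be weighted by library. No paired analysis was possible because each label group is 1 library and no library number is tied to a group. Depth limits Col4a3 and Col4a4, of which at most 112 UMIs underlie any level.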

Other observations

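Members were also found at low levels in immune-cell classes. In neutrophil-like cells Col4a1 was at 73.3 CPM (54.4 to 96.6) and Col4a2 at 67.4 CPM (49.4 to 89.9). These UMIs lay in 5.06% and 3.93% of the 178 cells, with up to 15 and 16 UMIs in 1 cell. Both levels were above those of free RNA (42.5 and 27.7 CPM). Of the neutrophil-like cells 2.25% were called doublets, and whether mixed cells gave these UMIs was not tested. In monocyte-derived macrophage-like cells Col4a1 was at 15.98 CPM (12.0 to 20.8), below the free RNA level. Col4a4 was at 3.34 CPM (1.53 to 6.35) in neuroblast-like cells, where 2.10% of cells had a UMI, and at 0.38 CPM in microglia-like cells.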
